A study of Oryza sativa Japonica Group with 96 samples.

Results

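PIN proteins carry auxin out of cells or into the endoplasmic reticulum, and in rice 6 of their genes could be followed here in the tissue that makes crown roots. The 6 were taken as the array features tied by the platform annotation to LOC4341736 (OsPIN2), LOC4326565 (OsPIN3a), LOC4327533 (OsPIN5), LOC4324368 (OsPIN5a), LOC4346116 (OsPIN4) and LOC4347506 (OsPIN5b), each with 1 feature, out of 36643 features on the array. All 6 gave a value on every array and none was filtered out. The names are RefSeq synonyms and overlap: LOC4327533 is also called OsPIN9, LOC4326565 also OsPIN10a and OsPIN3t, LOC4324368 also OsPIN6, and both LOC4346116 and LOC4347506 carry the synonyms OsPIN5b and OsPIN5c.

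Auxin made in the shoot moves from cell to cell because long PIN carriers sit on chosen faces of the plasma membrane and export it in that direction. Where the flow converges, auxin accumulates and a root primordium can start. PIN5-type carriers are short and lie, as known from Arabidopsis, in the membrane of the endoplasmic reticulum, where they alter auxin inside the cell. CRL1 is a transcription factor of the LBD family that acts downstream of auxin and is required for crown roots, and the comparison addresses whether transcripts of the carriers differed after CRL1 was induced.

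All plants were the crl1 mutant of cv Taichung 65, and for every sample the labels give 5 days of growth and a rest of 24 h. The plants received 1 µM dexamethasone at 0 h, which was removed after 5 h, so the 0 and 3 h samples precede the removal. In line DXC the vector pINDEX2 carried CRL1 for induction by dexamethasone, and in line DX the same vector was empty. DXC is a single transgenic line, DXC3, so a difference from DX includes anything else that sets these lines apart. Pools of 8 to 12 stem bases per sample were taken at 16 times 3 h apart, 0 to 45 h, and the course was run in 3 independent experiments. This gave 48 arrays of DXC and 48 of DX, 3 per line and hour. In such pieces of tissue, fewer cells with a transcript and less transcript per cell cannot be told apart. No feature was tied to CRL1, so the induction itself was not analysed here.

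Values are log2 levels normalized by the authors, and they ran from 1.82 to 12.92 over the table, without a background level or detection call. A level of 1 probe set says nothing about that of another, so each gene is compared only with itself. The rank of a mean level is given only to mark dim features. Array medians lay between 4.62 and 4.76, while the SD over all features of an array ranged from 1.40 to 1.68. It moved largely in array sets of 4 consecutive sampling times, a grouping made here. In experiment 3 of DX, however, the array at 0 h had 1.54. The 3 DX arrays of experiment 3 at 3, 6 and 9 h had the narrowest spread, 1.40 to 1.42, at the low end of a range that ran on from 1.43 to 1.68 over the other 93 arrays. The main values at 3 to 9 h are also given without these arrays, which leaves 2 DX arrays at each of those hours. Of the shoot meristem genes OSH1, OSH6, OSH15, OSH43 and OSH71, 5 of 5 had a feature, with mean levels from 3.23 to 5.31, and of 6 root and crown root genes 5 had one, with mean levels from 3.02 to 6.01. In the root list limma called QHB and WOX11 for the interaction of line and time, which called 0.969% of all features. QHB was higher in DXC by 1.18 at 6 h, without subtraction of 0 h (adjusted p = 0.000138 by limma). WOX11 had -1.25 in the late window, defined below, after its difference at 0 h was subtracted (adjusted p = 0.00227 by limma). Before induction WOX11 stood higher in DXC, at 5.79 against 5.27 in DX, so part of the -1.25 is that 0 h difference. Over 15 later hours and 5 features per list, limma called 7 values of the root list and 2 of the shoot meristem list. Of all pairs of feature and hour 0.648% were called. Within the 7, WOX11 had 4, QHB 2 and SCR1 1, and their largest differences were -1.01, 1.18 and -0.60.

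None of the 6 PIN genes was called different between the lines at any single hour, nor over any window of hours after the difference at 0 h was subtracted. A gene was called when the Benjamini-Hochberg adjusted p of limma, a linear model fitted over all features, was under 0.05. At 0 h 0 of 6 were called by limma (0.0273% of all features), and 0 of 6 had an unadjusted p under 0.05 (13% of all features). At the later hours 0 of 90 pairs of gene and hour were called by limma, 8 had an unadjusted p under 0.05, and 0.648% of all pairs of feature and hour were called. The 8 are 8.89% of the pairs, against 10.8% over all features.

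**Figure D1:**
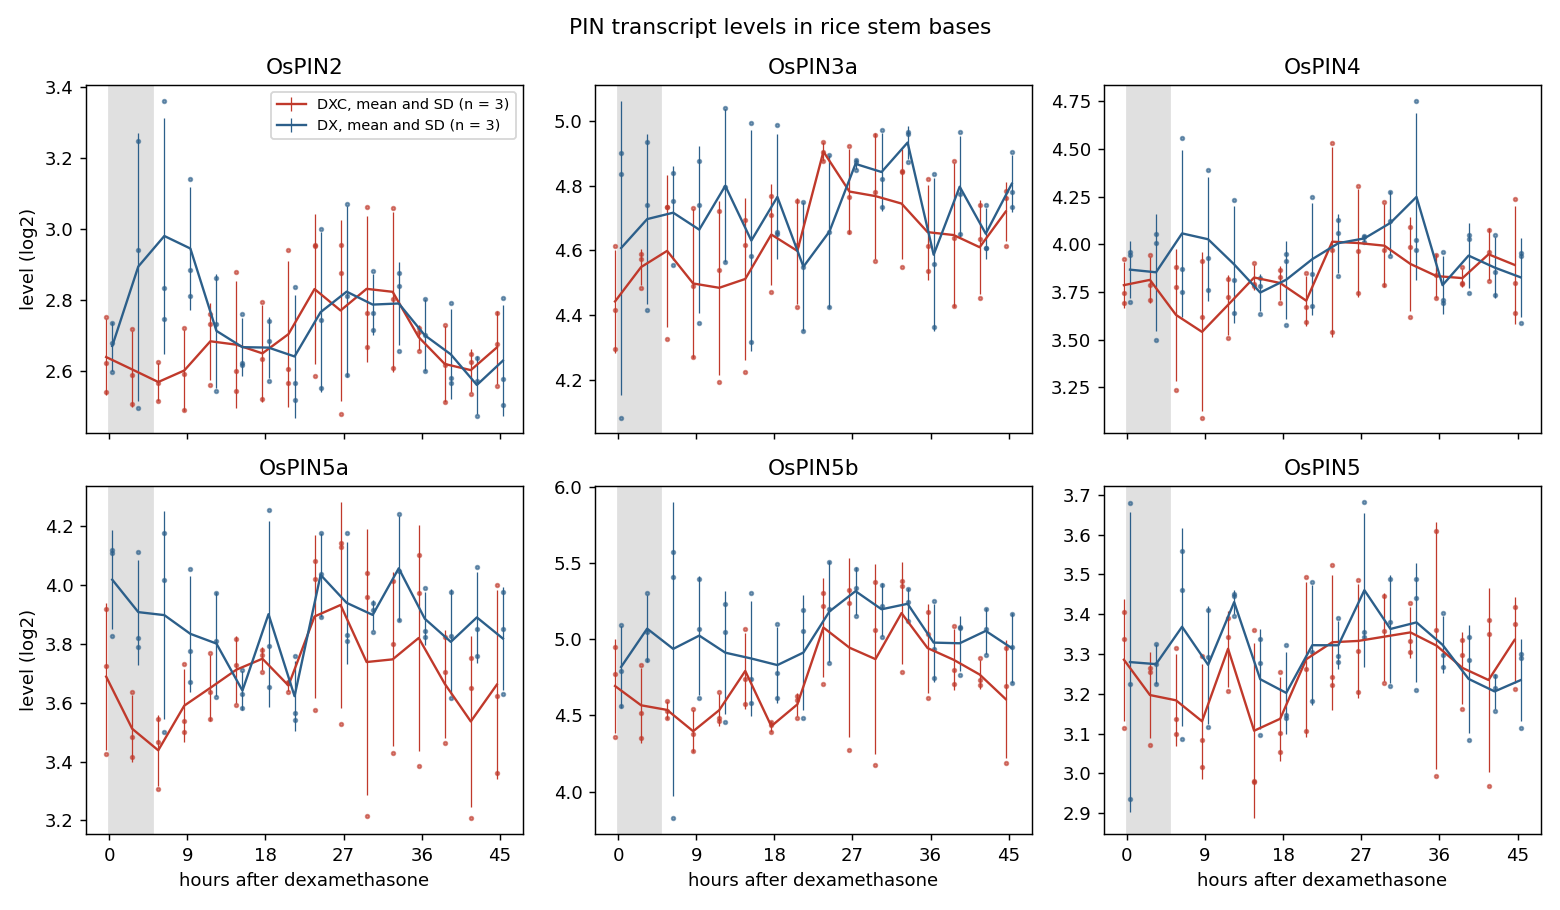
Level (log2, vertical axis, its own range in each panel) of 6 PIN genes against hours after dexamethasone in DXC (red) and DX (blue); points are single arrays, lines join hourly means, bars are the SD of 3 experiments and grey marks the 5 h of dexamethasone. DX lies above DXC between 3 and 9 h in the hourly means of all 6 panels.

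The carriers of the plasma membrane come first. OsPIN2 is a root-tip carrier that serves gravitropism in rice and Arabidopsis. Its values on all 96 arrays lay between 2.47 and 3.36, with a median of 2.64 in DXC and 2.73 in DX. Its mean level was above that of only 3.44% of all features, so its differences are those of a dim feature. Before induction DXC stood at 2.75, 2.62 and 2.54 in experiments 1, 2 and 3 and DX at 2.73, 2.68 and 2.60, so the lines overlapped. At 6 h the DXC arrays read 2.62, 2.57 and 2.52, against 2.83, 2.74 and 3.36 in DX. Every DXC array was below every DX array there, as in 15.2% of all features. The highest DX value came from experiment 3, on 1 of the arrays of narrow spread. The difference at 6 h was -0.41 (SE 0.14, n = 3; adjusted p = 0.168 by limma), the lowest adjusted p of any PIN gene at any hour. Without the 3 DX arrays of narrow spread it was -0.22 (SE 0.14; adjusted p = 0.843 by limma), and with the array SD as a covariate -0.084. At 9 h DXC averaged 2.60 ± 0.11 and DX 2.94 ± 0.17 (SD, n = 3). Again the lines did not overlap, as in 11.2% of all features with DXC lower, and OsPIN2 was not called (adjusted p = 0.283 by limma). Without the DX array of narrow spread the difference at 9 h was -0.25. From 12 to 45 h no difference of OsPIN2 exceeded 0.07 in size.

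OsPIN3a, also known as OsPIN10a or OsPIN3t, is a plasma membrane carrier of rice. It had a median of 4.64 in DXC (4.19 to 4.95) and 4.75 in DX (4.08 to 5.04), over 48 arrays each. Its largest difference was at 12 h, where DXC read 4.19, 4.54 and 4.72 and DX 5.04, 4.56 and 4.79. These values overlapped, and the difference of -0.31 (SE 0.17) was not called (adjusted p = 0.506 by limma). In DXC its lowest hourly mean was at 0 h (4.44 ± 0.16) and its highest at 24 h (4.90 ± 0.03), and in DX the lowest was at 21 h (4.55 ± 0.20) and the highest at 33 h (4.93 ± 0.05).

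OsPIN5, also named OsPIN9, belongs to a group of carriers found in monocots, and in rice its transcript is known from adventitious root primordia and the vascular tissue at the stem base. Its mean level was above that of 14.2% of all features. Its SD over 48 arrays was 0.16 in DXC and 0.15 in DX, and the range of its hourly means was 0.25 in DXC and 0.26 in DX. At 6 h, its largest difference, DXC read 3.14, 3.32 and 3.10 and DX 3.56, 3.09 and 3.46, a difference of -0.18 (SE 0.13; adjusted p = 0.759 by limma) with overlapping values. Without the DX array of narrow spread it was -0.14, and with the array SD as a covariate -0.020. At 12 h the lines did not overlap, with DXC at 3.39, 3.34 and 3.21 against DX at 3.45, 3.40 and 3.44, but lay only 0.12 apart (adjusted p = 0.946 by limma).

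Of the PIN5-type genes, OsPIN5a differed most already before induction. At 0 h DXC read 3.72, 3.42 and 3.92 and DX 4.11, 3.83 and 4.12, a difference of -0.33 (SE 0.18; adjusted p = 0.406 by limma). At 3 h DXC had 3.41, 3.48 and 3.64, all below the 3.79, 3.82 and 4.11 of DX, as in 12.5% of all features. The difference was -0.40 at 3 h and -0.46 at 6 h (adjusted p = 0.374 and 0.257 by limma). Without the DX arrays of narrow spread these were -0.29 and -0.32, and with the array SD as a covariate 0.026 and -0.0078. At 42 h the lines again did not overlap, with 3.75, 3.65 and 3.21 in DXC and 3.76, 4.06 and 3.85 in DX, the lowest of them from experiment 3 of DXC.

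OsPIN4, the name of LOC4346116 used here, is a second gene of this type. At 9 h, its largest difference, DXC read 3.91, 3.09 and 3.62 and DX 4.39, 3.76 and 3.93, a difference of -0.49 (SE 0.20; adjusted p = 0.295 by limma). The values overlapped because DXC in experiment 1 was above DX in experiment 2. OsPIN4 was lower in DXC within each experiment at that hour. Without the DX array of narrow spread the difference was -0.53, and with the array SD as a covariate -0.17.

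OsPIN5b, the third PIN5-type gene, had the widest swings. Its values ran from 4.17 to 5.38 in DXC (median 4.70) and from 3.82 to 5.57 in DX (median 5.07). At 9 h DXC read 4.54, 4.38 and 4.27, against 5.07, 4.61 and 5.39 in DX. No value overlapped, as in 11.2% of all features with DXC lower at that hour. The difference of -0.63 (SE 0.27, adjusted p = 0.322 by limma), 1.55-fold, was the largest of any PIN gene at any hour. Without the DX arrays of narrow spread it was -0.44 (adjusted p = 0.855 by limma), and with the array SD as a covariate -0.080. At 6 h DX gave both extremes of the gene, 3.82 in experiment 2 and 5.57 in experiment 3, while DXC lay between 4.48 and 4.60. At 18 h DXC stood at 4.43 ± 0.04 and DX at 4.83 ± 0.25 without overlap (adjusted p = 0.712 by limma).

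**Figure D2:**
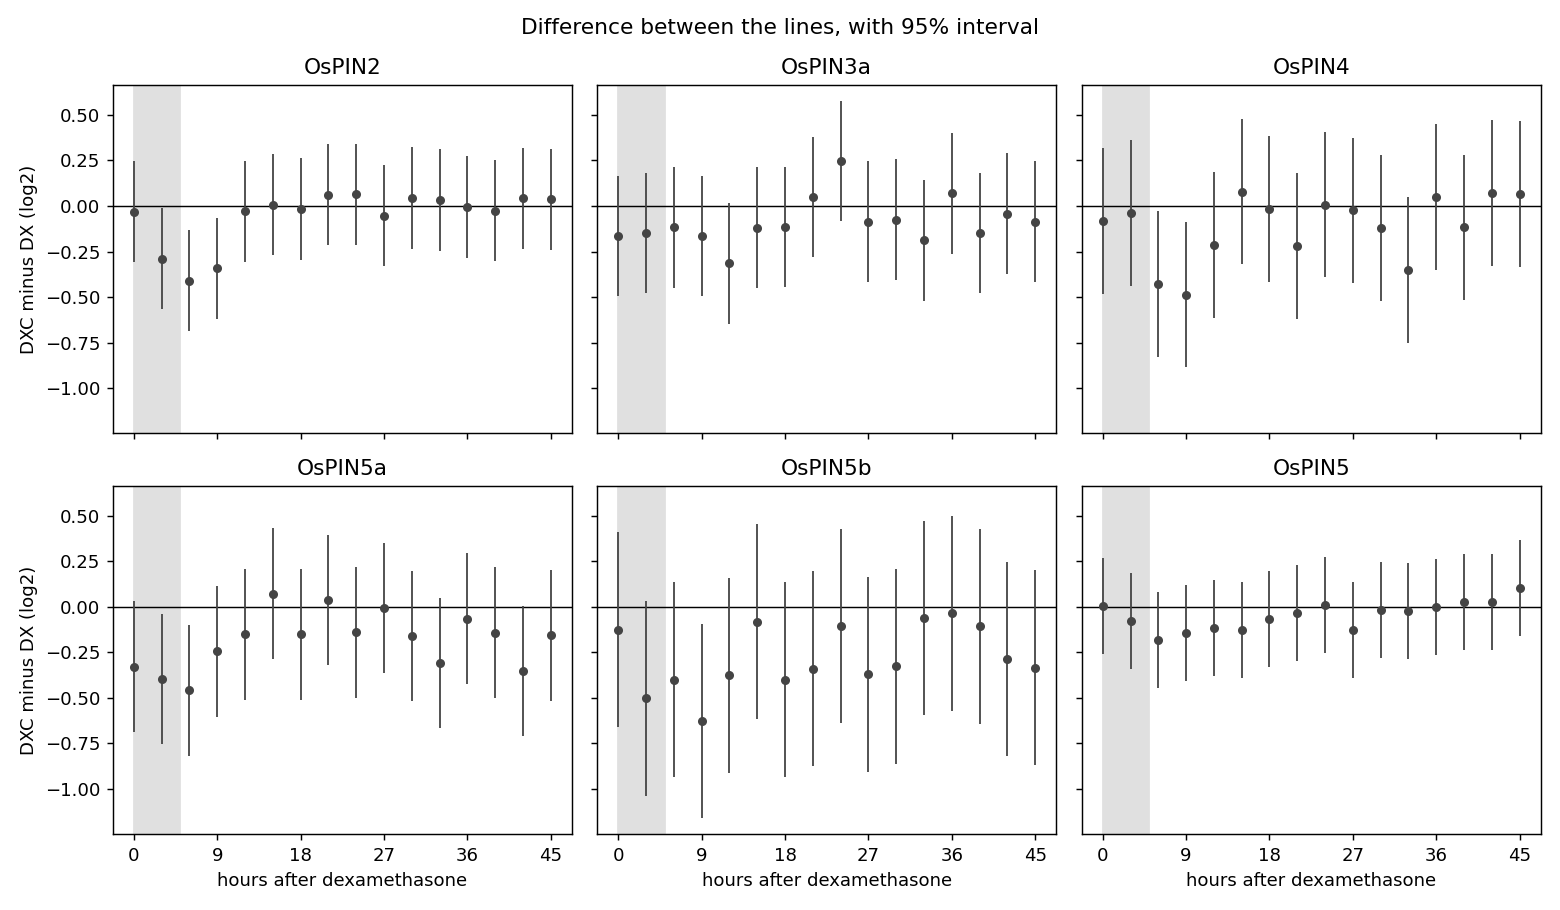
Difference DXC minus DX (log2, vertical axis) of each PIN gene against hours after dexamethasone, with the 95% interval of the limma fit; the horizontal line is no difference and grey marks the 5 h of dexamethasone. Of the 90 intervals after 0 h, 82 hold 0, and the lowest point lies between 3 and 9 h in each gene but OsPIN3a, where it lies at 12 h.

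Across the 15 later hours 69 of the 90 values were below 0, against 48.4% of all pairs of feature and hour. All 6 genes were below 0 at 3, 6, 9, 12, 18 and 27 h. The 3 arrays of each line did not overlap in 10 pairs with DXC lower and in 0 with DXC higher, against 6.25% and 7.08% of all pairs of feature and hour. At 3, 6 and 9 h, 2, 1 and 2 of the 6 genes did not overlap with DXC lower, against 12.5%, 15.2% and 11.2% of all features. From 12 to 45 h alone, hours without the DX arrays of narrow spread, 51 of 72 values were below 0 (48.6% over all features) and 5 did not overlap with DXC lower (4.58%). Over all 15 hours, 68 of 90 were below 0 without those arrays and 59 of 90 with the array SD as a covariate (48.4% and 49.2% over all features). These counts are not independent, because the 6 genes were measured on the same arrays and their hourly means moved together: over the 32 groups of line and hour, Pearson's r between 2 of the genes ran from 0.46 to 0.76 in the 15 pairs. The 95% intervals at single hours reached from -1.16 (2.24-fold lower in DXC) to 0.58 (1.49-fold higher).

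Windows pool hours and subtract the difference at 0 h. In the early window (3 to 9 h) 0 of 6 genes were called by limma (0.333% of all features). An unadjusted p under 0.05 was found for 0 of 6 (6.42% of all features). The gene nearest to the threshold was OsPIN2, with -0.32 (95% interval -0.64 to 0.00; adjusted p = 0.789 by limma), where DXC lay at -0.05 and DX at 0.27 relative to their own 0 h levels. In experiments 1, 2 and 3 this value was -0.26, -0.00 and -0.69. OsPIN5b had -0.38 (SE 0.31), OsPIN4 -0.24, OsPIN5 -0.14, OsPIN5a -0.04 and OsPIN3a 0.02. Without the DX arrays of narrow spread OsPIN2 had -0.16, OsPIN5b -0.18 and OsPIN5a 0.080, and 0 of 6 were called by limma. The median of the 6 was -0.19, against -0.00 over all features.

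In the middle window (12 to 24 h) limma called 0 of 6 (0.347% of all features), with 0 at an unadjusted p under 0.05 (11.9%). In the late window (27 to 45 h) these counts were likewise 0 (0.248%) and 0 (12.1%). The median of the 6 was 0.03 in each, against -0.02 over all features in each. OsPIN5a had the largest middle value, 0.26 (SE 0.20; adjusted p = 0.574 by limma), most of it the difference of -0.33 at 0 h that was subtracted: in the window itself DXC stood at 3.73 ± 0.08 and DX at 3.80 ± 0.11 (SD of 3 experiment means). OsPIN3a differed between experiments, with 0.57, 0.46 and -0.77 in the late window. All 18 window intervals of this fit held 0. They reached from -1.002, a 2.00-fold lower level in DXC (OsPIN5b, early), to 0.65, a 1.57-fold higher one (OsPIN5a, middle). For the genes other than OsPIN5b the lower end was -0.70, or 1.62-fold. In the same windows 0 of 6 leaf photosynthesis genes were called by limma, with medians of -0.21, -0.53 and -0.47 in the early, middle and late window. These medians include the subtracted 0 h difference, at which all 6 were higher in DXC, such as RBCS (8.01 against 7.44) and PORA (10.05 against 9.47). Of 12 seed storage and amylase genes 0 were called, with medians of -0.07, 0.09 and 0.08. The part of both lists in the PIN values was not tested.

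Without the subtraction of 0 h, the early window gave another count. Of the 6 genes 4 were then called lower in DXC by limma, in a comparison that called 61.4% of all features, 28.5% as lower. OsPIN2 was lower by a difference of -0.35 (SE 0.08; adjusted p = 0.000349), with 2.59 ± 0.08 in DXC and 2.94 ± 0.29 in DX. OsPIN5b had -0.51 (4.50 ± 0.06 in DXC, 5.01 ± 0.52 in DX; adjusted p = 0.00412 by limma). OsPIN5a had -0.37 (adjusted p = 0.00235) and OsPIN4 -0.32 (adjusted p = 0.0153). OsPIN5 (-0.13) and OsPIN3a (-0.14) were not called. OsPIN2 had -0.24, -0.06 and -0.74 in experiments 1, 2 and 3, and OsPIN5b -0.70, 0.13 and -0.96.

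The spread of the arrays differed between the lines in the same hours. From 0 to 9 h the array SD averaged 1.65 in DXC (1.62 to 1.68, 12 arrays) and 1.52 in DX (1.40 to 1.65, 12 arrays), whereas from 12 to 21 h it averaged 1.59 in DXC and 1.60 in DX. In a fit with the array SD as a covariate, all 6 PIN genes were lower on arrays of wider spread. Per 0.1 of array SD, OsPIN5b changed by -0.45 (SE 0.05; adjusted p = 6.22e-14 by limma), OsPIN5a by -0.29, OsPIN4 by -0.26, OsPIN2 by -0.21, OsPIN3a by -0.14 and OsPIN5 by -0.10 (adjusted p = 0.00266). This covariate was called for 78.6% of all features, 35.8% in the negative direction. In that fit 0 of 6 genes were called in the early window without subtraction, with 3.25% of all features called, and the differences lay between -0.05 (OsPIN2) and 0.13 (OsPIN5b). Array SD and line went largely together in these hours, so the fit cannot tell array spread from a difference between the lines. Without the 3 DX arrays of narrow spread 1 of 6 was called, OsPIN4 at -0.33 (adjusted p = 0.0439 by limma; 32.2% of all features called), and OsPIN2 had -0.19 (adjusted p = 0.0559). The count was 2 without experiment 1 (OsPIN2 and OsPIN5a), where 40.5% of all features were called. It was 5 without experiment 2 (the 4 genes and OsPIN5, with 64% of all features called) and 1 without experiment 3 (OsPIN5a, with 18.6%). With subtraction of 0 h and the array SD as a covariate, OsPIN5b moved to -0.58 (95% interval -0.96 to -0.19; adjusted p = 0.179 by limma) in the middle window and to -0.51 (-0.89 to -0.14; adjusted p = 0.259) in the late window. These intervals did not hold 0, but neither value was called. Both values include the subtracted 0 h difference of OsPIN5b, which was positive in that fit. Without the subtraction, OsPIN5b had -0.28 in the middle and -0.21 in the late window with the covariate. On the deposited values it had -0.26 and -0.22.

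**Figure D3:**
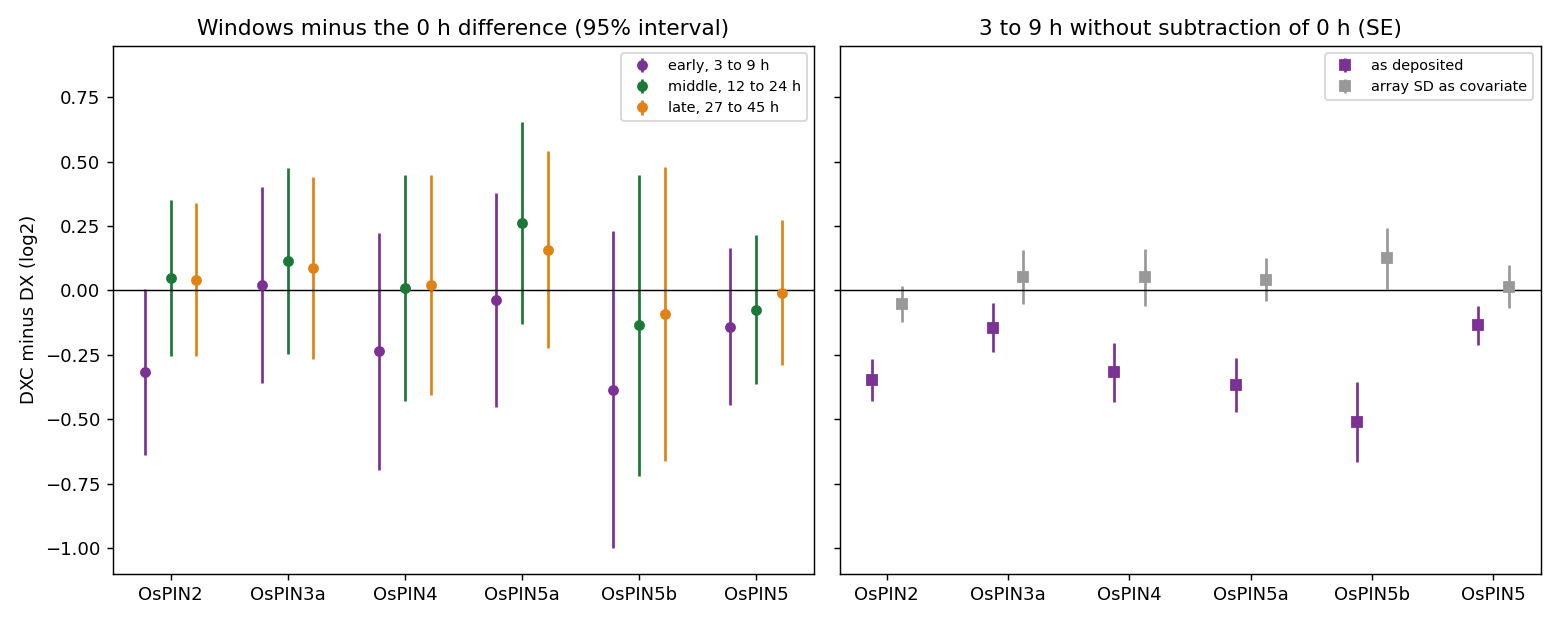
Left, line difference DXC minus DX after subtraction of its 0 h value (log2) for 6 PIN genes in the early, middle and late window, with 95% intervals, all of which hold 0. Right, DXC minus DX over 3 to 9 h without that subtraction, with SE, from the fit on the deposited values (purple) and with the array SD as a covariate (grey); the purple points run from -0.51 to -0.13 and the grey ones from -0.05 to 0.13.

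**Figure D4:**
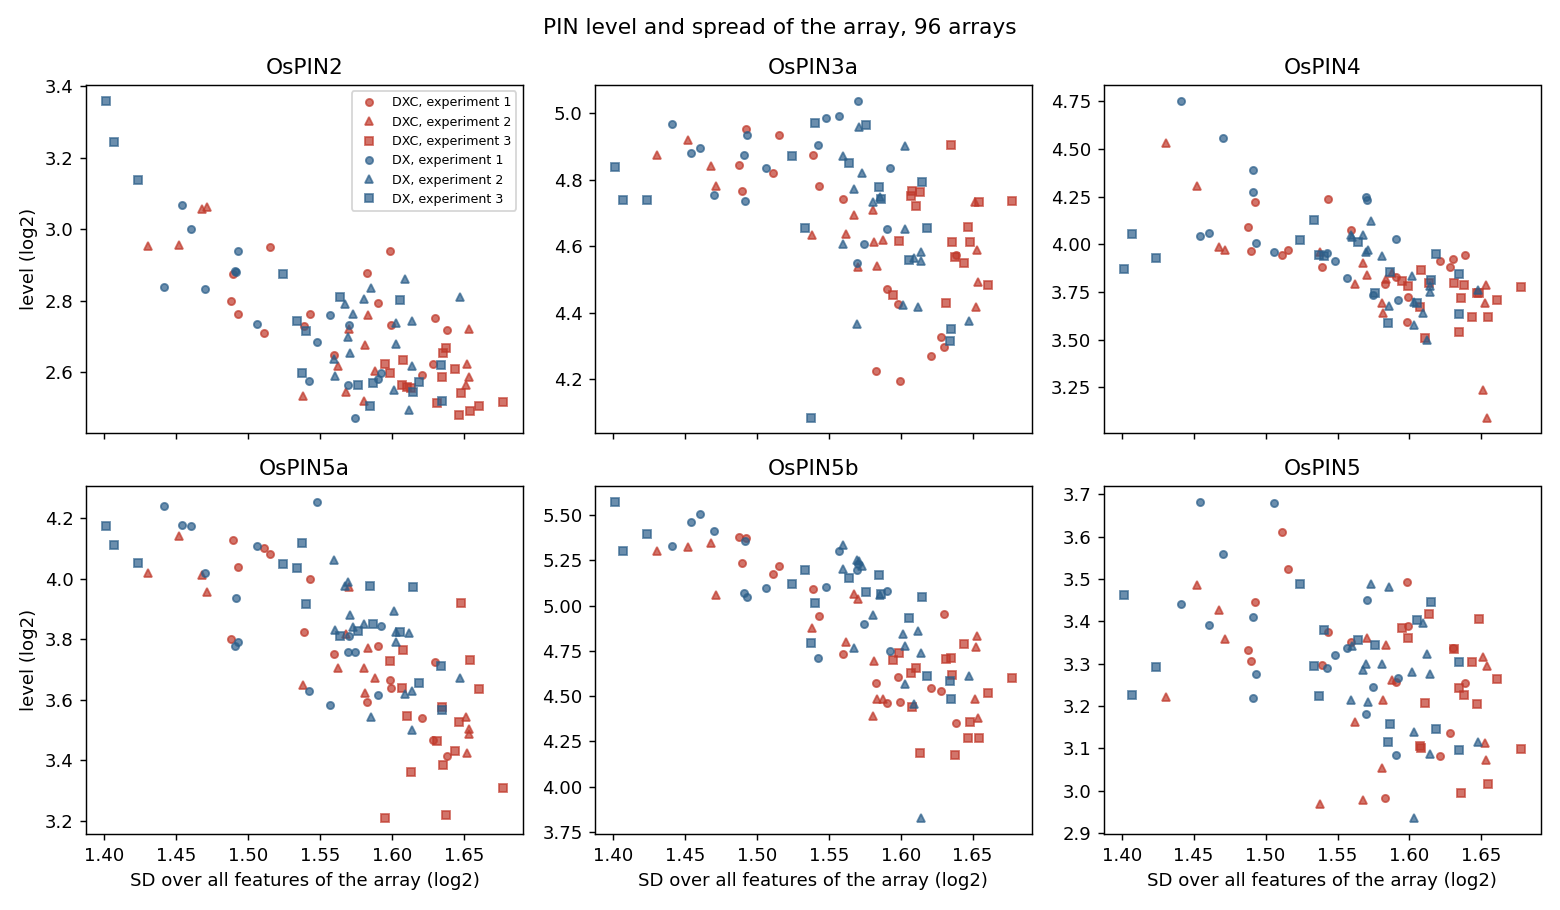
Level of each PIN gene (log2, vertical axis, its own range in each panel) on each of 96 arrays against the SD over all features of that array (log2); colour gives the line and marker shape the experiment. Levels are lower on arrays of wider spread, and the 3 DX arrays of experiment 3 at the left hold the highest OsPIN2 values.

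An F test of limma over the 15 later hours against 0 h called 0 of 6 in DXC (5.37% of all features) and 0 of 6 in DX (0.371%). At an unadjusted p under 0.05 the counts were 0 in DXC (20.6% of all features) and 0 in DX (9.84%). The lowest adjusted p was that of OsPIN5b in DXC (0.389) and of OsPIN2 in DX (0.673). Without experiment 3, OsPIN5a was called in DXC (adjusted p = 0.0256 by limma; 20.1% of all features called). The range of hourly means was widest in OsPIN5b of DXC, with 4.40 ± 0.14 at 9 h and 5.17 ± 0.33 at 33 h. The interaction of line and time called 0 of 6 by limma (0.969% of all features), with adjusted p from 0.796 for OsPIN2 to 1 for OsPIN5b and OsPIN5. Its unadjusted p was under 0.05 for 0 of 6 (9.45% of all features).

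Hours 24 h apart share their place in the 14 h day. In DXC the level at 24 to 45 h was called higher than at 0 to 21 h for 4 of 6 genes by limma, in a comparison that called 52.3% of all features in either direction and 23.5% as higher. OsPIN5b averaged 4.91 on the second day and 4.57 on the first (difference 0.34, SE 0.09; adjusted p = 0.00301). OsPIN4 (0.20; adjusted p = 0.0145), OsPIN3a (0.19; adjusted p = 0.00711) and OsPIN5 (0.11; adjusted p = 0.0437) were the others called by limma. In DX 0 of 6 were called by limma (0.974% of all features), with differences from -0.06 for OsPIN2 to 0.19 for OsPIN5b. The unadjusted p in DX was under 0.05 for 0 of 6 (14.7% of all features). The difference between the day changes of DXC and DX was called by limma for 0 of 6 (9.91% of all features). Its unadjusted p was under 0.05 for 1 of 6, against 31.3% of all features. With the array SD as a covariate, or with array sets as a random block, 0 of 6 genes were called in DXC (limma; 3.79% and 15% of all features called). Without experiment 1 or without experiment 2 the count in DXC was also 0 (3.51% and 14.1% of all features).

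Other genes of auxin transport and supply were taken from a short list. OsPIN1 (PIN1A), known in rice for its part in adventitious root emergence, PIN1B and PIN1C had no matched feature and were not analysed here. PID and PID2 encode kinases of the PINOID type, which set the side of the cell on which PIN proteins lie. FIB encodes a tryptophan aminotransferase and YUCCA1 a flavin monooxygenase, the enzymes of consecutive steps of auxin synthesis. None of these 4 genes was called by limma in a window (0 of 12 tests), for the interaction or at any of 15 hours (0 of 60 pairs). Over all features limma called 0.333%, 0.347% and 0.248% in the early, middle and late window and 0.969% for the interaction. At single hours it called 0.648% of all pairs of feature and hour, so these counts of 0 are near the shares over all features. YUCCA1 came nearest, with 4.60 in DXC and 5.09 in DX at 0 h, -0.87 at 3 h (adjusted p = 0.0527) and an interaction p of 0.00299 (adjusted p = 0.162). FIB had -0.64 at 9 h (adjusted p = 0.107), PID -0.38 at 6 h (adjusted p = 0.731) and PID2 -0.27 at 6 h (adjusted p = 0.596). These largest differences of the 4 genes all fell at 3 to 9 h, the hours of the DX arrays of narrow spread. Their values without those arrays are not given here.

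The features whose hourly means most resembled each PIN gene were sought among 24160 others with 1 gene symbol, by Pearson's r over the 32 means of line and hour, as a description. For OsPIN2 they were LOC4324082 (r = 0.90) and LOC4345583 (r = 0.88). For OsPIN5b they were LOC9266699 (r = 0.92) and LOC4327987 (r = 0.90), for OsPIN4 LOC9271281 (r = 0.89) and LOC9269642 (r = 0.88), and for OsPIN5a LOC9270331 (r = 0.86) and LOC4326740 (r = 0.84). OsPIN3a was closest to LOC4334726 (r = 0.82) and to LOC4348981 (r = 0.80), which RefSeq also names TIP3, and OsPIN5 to LOC4326954 (r = 0.78) and LOC4331600 (r = 0.77). The 32 means come from the same arrays, whose spread moved with all 6 genes.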

How the data were processed

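The deposited table held log2 values, 1 column per array for 96 arrays of 36643 features; 0 columns lacked a sample. Per the submitters' processing notes the authors used GCRMA, which corrects background, normalizes between arrays and summarises probes; which release they ran is not given in the sources used here. Precision is limited by the number of arrays.

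From these values, 32 groups of line and hour were fitted together with limma 3.58.1 in R 4.3.3 (lmFit, then eBayes with trend, leaving 64 residual degrees of freedom), and p-values were adjusted by Benjamini-Hochberg over all features (single hours: over all features and 15 hours). The fit was also run on simulated data with independent noise on each array. Those data lacked the correlation within array sets (0.44) and the differences in array spread, so that run cannot test the p-values given here. Genes were named through the platform annotation and RefSeq's gene table (ASM3414082v1). All 6 PIN genes are named, with the 2 features most like each by Pearson's r. Of the short auxin list, all 4 genes with a matched feature are named. Other families of auxin transporters were not analysed here. The members and lists were chosen with earlier results of these data known.

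The labels' protocols state that the experiment was run 3 times with both lines, and equal replicate numbers were taken to mark the same run. The 48 same-hour DXC and DX arrays of equal number had residuals with a mean correlation of 0.05 (unequal numbers -0.03); 16 exceeded 0.1 and the lowest was -0.64. Alternatives were the experiment as a block, array sets as a random block (correlation 0.44), quantile normalization, no trend, a filter on dim features, leaving out each experiment, no subtraction of 0 h and fits of a window's hours alone. The array SD as a covariate and leaving out 3 arrays were chosen after seeing the data.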

Additional observations from a re-analysis of the deposited data

How the results depend on the processing

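Where an alternative gave a value, limma called 0 of the PIN genes tested at 0 h, at single hours, in the middle and late window, for the interaction, and for time and the second day in DX. In the main fit these comparisons called from 0.0273% (0 h) to 0.974% (second day in DX) over all features. Counts of 0 among 6 genes are near such shares. Without the subtraction of 0 h, 5.99% of all features were called in the middle window and 5.13% in the late window. The filter on dim features tested OsPIN5b alone, and the settings without subtraction and with a window's hours alone were run for windows. For time in DXC the count was 0 to 1 when an experiment was left out (OsPIN5a without experiment 3, with 20.1% of all features called). For the early window it was 4 without the subtraction of 0 h (61.4% of all features called). Without that subtraction it was also 4 with the replicate block (63.9%), 3 with array sets as a random block (40.3%), 3 after quantile normalization (52.2%), 1 without the 3 DX arrays of narrow spread (32.2%) and 1 to 5 when an experiment was left out (18.6% to 64%; 2 without experiment 1). For the second day in DXC it was 4 (52.3%), but 0 with array sets as a random block (15%), 0 with the array SD as a covariate (3.79%), 0 to 4 when an experiment was left out (3.51% to 65.6%), and 1 where OsPIN5b alone passed the filter on dim features (62.4%). The replicate block, which treats equal numbers as paired, kept the count at 4 and changed no call.

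In 48 cases a value took the other sign, and in 0 of these was either value called. With the array SD as a covariate, the early window of OsPIN5a was 0.099. The middle window was then -0.16 for OsPIN2, -0.023 for OsPIN3a, -0.25 for OsPIN4 and -0.022 for OsPIN5a, and the late window -0.15, -0.045, -0.22 and -0.11 for the same genes. The 0 h difference was 0.17 for OsPIN2, 0.16 for OsPIN4 and 0.30 for OsPIN5b, and the second day in DXC -0.052 for OsPIN2 and -0.071 for OsPIN5a. Without the subtraction of 0 h, OsPIN3a had -0.14, -0.051 and -0.079 in the early, middle and late window, OsPIN4 -0.072 and -0.062 in the middle and late window, and OsPIN5a -0.067 and -0.17. After quantile normalization, the early window was -0.0020 for OsPIN3a and 0.015 for OsPIN5a, the late window -0.0021 for OsPIN2 and -0.065 for OsPIN4, and the middle window -0.046 for OsPIN4. Without the 3 DX arrays the early window of OsPIN5a was 0.080.

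When 1 experiment was left out, the early window ranged from -0.29 to 0.36 for OsPIN3a and from -0.18 to 0.12 for OsPIN5a. The middle window ranged from -0.12 to 0.34 for OsPIN3a, -0.12 to 0.13 for OsPIN4, -0.28 to 0.050 for OsPIN5 and -0.35 to 0.025 for OsPIN5b. The late window ranged from -0.015 to 0.087 for OsPIN2, -0.16 to 0.52 for OsPIN3a, -0.030 to 0.073 for OsPIN4, -0.22 to 0.11 for OsPIN5 and -0.24 to 0.024 for OsPIN5b. The 0 h difference ranged from -0.51 to 0.023 for OsPIN3a, -0.082 to 0.18 for OsPIN5 and -0.29 to 0.031 for OsPIN5b, and the second day in DX from -0.040 to 0.16 for OsPIN4 and -0.016 to 0.063 for OsPIN5. The causes were not tested. Without detection calls, how far each PIN feature stood above background is not known here.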
